A study of Mus musculus with 4 samples.

Results

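Genes of the cell division cycle were examined in hippocampal RNA (left side) from 12-month-old male mice. The members were the probe sets with a single gene symbol that begins with the letters of a cyclin (Ccna to Ccnh), a cyclin-dependent kinase (Cdk and a digit, without Cdk5 and Cdk5r1), a CDK inhibitor (Cdkn), a CDC gene (Cdc and a digit, without Cdc42), a minichromosome maintenance gene (Mcm and a digit) or an E2F factor. The rule found 84 of 12422 probe sets, which stand for 66 of the 8251 genes with a symbol of their own. It reads symbols only, so 15 of the genes (17 probe sets) share the start of a name without belonging to the family it stands for, and these are described apart. The study hybridised 4 oligonucleotide arrays. The 2 control arrays came from nontransgenic C57B6/SJL mice, and the 2 APPSw arrays from Tg2576 mice, which overexpress amyloid precursor protein carrying the Swedish mutation. In that line the transgene is driven by a hamster prion protein promoter, which is active in neurons and other cells. The labels do not state that the arrays of a group came from separate animals or from littermates, so p-values reflect only how these samples vary, and that variation may be technical.

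Cyclins are the regulatory subunits that switch on cyclin-dependent kinases in turn through the cycle. D cyclins with Cdk4 open the G1 phase by phosphorylating the retinoblastoma protein, which frees E2F factors to transcribe genes of DNA replication, among them cyclin E, Cdc6 and the MCM helicase subunits. Cyclins E and A with Cdk2 carry cells through S phase, and cyclins A and B with Cdk1 into mitosis. Inhibitors of the INK4 class (Cdkn2) bind Cdk4, and those of the CIP/KIP class (Cdkn1) bind CDK-cyclin complexes more widely. Most neurons of the adult hippocampus have left the cycle, while progenitors of the dentate gyrus, oligodendrocyte progenitors, microglia and vascular cells can still divide. Re-expression of cycle proteins in neurons has been described in Alzheimer's disease, and several members also act in postmitotic neurons.

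Values are linear MAS 5.0 signals, scaled by the submitters to the same target on every array, and median signals were 926 to 1033. Differences are in log2 signal, APPSw minus control, with limma's moderated standard error, and adjusted p-values run over the 7453 probe sets whose geometric mean signal reached 565. Of 14 measured genes of hippocampal principal neurons, 13 passed that filter. This does not identify the region, since 5 of 6 measured neocortex markers passed it too. Of these 13 genes, 11 had differences below 0 (median -0.40), and 4 had an unadjusted p under 0.05, all lower in APPSw, as had 3.33% of all probe sets tested. Of 6 measured neocortex markers the 5 tested lay above 0 (median 0.34), with 0.87 (SE 0.18) for Fezf2 and 0.93 (SE 0.22) for Mef2c by its brightest probe set. All 7 tested oligodendrocyte markers lay below 0 (median -0.28), and the median of 8 astrocyte markers was -0.05. The part of these cell types and regions in the cell cycle values was not tested. One array stood apart: all 7 choroid plexus markers that passed the filter were brightest in APPSw 1, and their summed signal was 141387 there against 16646 and 25932 in controls and 20293 in APPSw 2. Of the cell cycle members, 28.6% were brightest in APPSw 1, against 27.2% of all probe sets tested. In bulk tissue, fewer cells of a type and less RNA per cell cannot be told apart.

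Of the 84 members, 56 passed the filter (50 genes) and 28 did not. By limma, 0 of the 56 passed an adjusted p of 0.05, where 0.00% of all probe sets did, and the lowest adjusted p of a member was 0.599. An unadjusted p under 0.05 was reached by 4 members, 1 higher and 3 lower in APPSw, against 4.72% and 3.33% of all probe sets in those directions. Together these are 7.14% of the 56, beside 8.05% of all probe sets tested. Both APPSw arrays lay above both controls for 10 members, 17.9% against a background of 22.2%, and below both for 12, 21.4% against 19.0%. In total 22 members (39.3%) separated the groups, against 41.2% of all probe sets, so members did so about as often as other probe sets. Their median difference was 0.02, as it was over all probe sets. For the members that are cyclins, kinases, inhibitors, CDC, MCM or E2F genes in function the median was 0.10 over 42 probe sets, with 2 at an unadjusted p under 0.05, a selection made after the values were seen. The median size of the difference between the arrays of a group was 0.21 for controls and 0.27 for APPSw, against 0.19 and 0.24 over all probe sets.

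**Figure D1:**
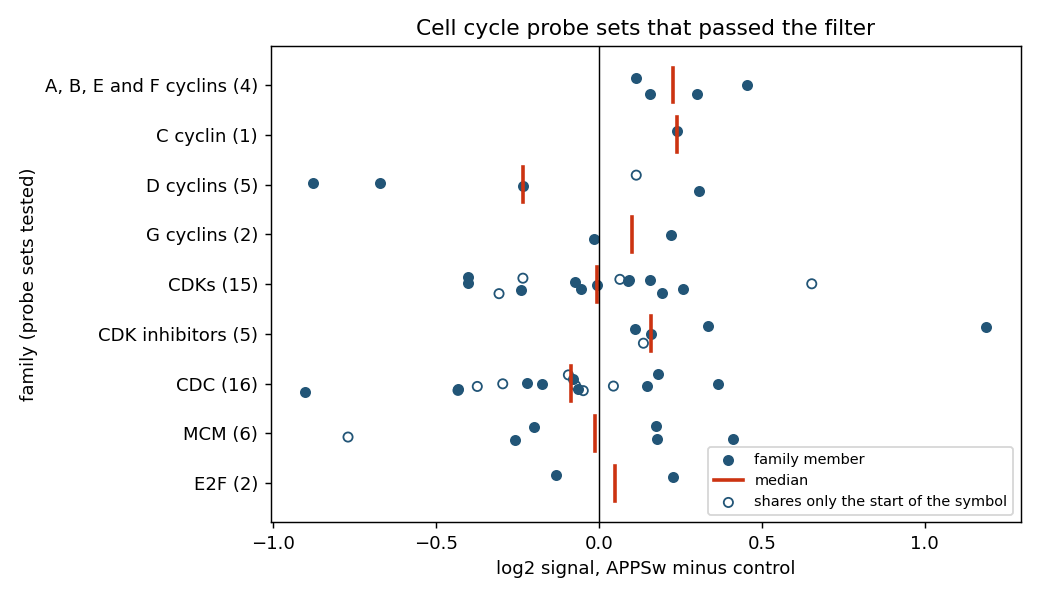
Log2 signal difference, APPSw minus control, of the 56 cell cycle probe sets that passed the filter, by family, with the number tested beside each name. Filled points are family members, open points genes that share only the start of a symbol, and red bars family medians; points lie on both sides of 0, from -0.90 for Cdc23 to 1.19 for Cdkn1c.

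The mitotic and S-phase cyclins had small positive differences. All 4 probe sets of the A, B, E and F group that passed the filter lay above 0, between 0.11 and 0.45, and in none of them did the groups separate. Ccna2, the cyclin of S phase and early mitosis, read 1633 and 1192 on the control arrays against 2338 and 1565 on the APPSw arrays, giving a difference of 0.45 (SE 0.27, adjusted p = 0.655). APPSw 1 was the highest array and APPSw 2 lay between the controls, so the groups overlapped. The difference was 0.17 without APPSw 1, 0.23 without control 2 and 0.74 without APPSw 2. Ccnb2, a mitotic B cyclin, read 1408 and 2184 on the control arrays against 2396 and 1949 on the APPSw arrays, giving a difference of 0.30 (SE 0.27, adjusted p = 0.757). Control 2 lay above APPSw 2, and without control 1 the difference was -0.015. Ccne1, the cyclin of the G1 to S transition, differed by 0.11 (SE 0.22), and Ccnf, which serves as the substrate receptor of a ubiquitin ligase, by 0.16 (SE 0.19). Without control 1, 2 of the 4 lay above 0. Ccnc, the partner of Cdk8 in the Mediator complex, read 1354 and 1954 on the control arrays against 2001 and 1839 on the APPSw arrays, giving a difference of 0.24 (SE 0.23), which was -0.026 without control 1.

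Among the D cyclins, Ccnd2 had the clearest separation. Ccnd2, a G1 cyclin used by neural progenitors, read 929.4 and 1080.7 on the control arrays against 426.0 and 697.7 on the APPSw arrays. Both APPSw arrays lay below both controls, with APPSw 1 the lower, and the difference was -0.88 (SE 0.28, adjusted p = 0.599). It was -0.52 without APPSw 1 and -1.23 without APPSw 2. The geometric mean of its APPSw values lay under the signal level of the filter, so Ccnd2 was tested only because of the controls. Ccnd1 was read by a pair of probe sets that opposed each other. The first (94231_at) read 754.6 and 1318.8 on the control arrays against 471.3 and 832.5 on the APPSw arrays, giving a difference of -0.67 (SE 0.38, adjusted p = 0.636). Leaving out APPSw 1 made it -0.26, leaving out control 2 made it -0.27, and leaving out APPSw 2 made it -1.08. The second (94232_at) read 1999 and 2510 on the control arrays against 3751 and 2049 on the APPSw arrays, giving a difference of 0.31 (SE 0.32, adjusted p = 0.793). On APPSw 1 the first was the lowest of its 4 values and the second the highest of its own, and without APPSw 1 the second was at -0.13. Ccnd3 read 2078 and 1742 on the control arrays against 2077 and 1261 on the APPSw arrays, and the groups overlapped.

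The G cyclins are linked to p53 and to growth arrest rather than to progress through the cycle. Ccng1, a p53 target, read 2015 and 1405 on the control arrays against 1372 and 2019.7 on the APPSw arrays. Its groups covered almost the same range, and the difference was -0.015 (SE 0.28, adjusted p = 0.996). Ccng2, which is raised in quiescent cells, read 4498 and 5662 on the control arrays against 5341 and 6477 on the APPSw arrays, giving a difference of 0.22 (SE 0.21, adjusted p = 0.770) with overlapping groups, and 0.055 without control 1.

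Of the kinases and genes named after them, 15 probe sets passed the filter, with 7 differences above 0 and 8 below. Cdk4, the partner of the D cyclins, was read by a pair of probe sets that pointed the same way. One (101017_at) read 921.4 and 976.0 on the control arrays against 1118.4 and 1149.1 on the APPSw arrays, giving a difference of 0.26 (SE 0.17, adjusted p = 0.677). The other (160538_at) read 6011 and 6118 on the control arrays against 6694 and 6831 on the APPSw arrays, giving a difference of 0.16 (SE 0.17, adjusted p = 0.795). Both showed APPSw arrays above controls with little spread inside a group, though the difference was small. Cdk16, a PCTAIRE kinase abundant in neurons, read 8822 and 10406 on the control arrays against 7663 and 6877 on the APPSw arrays, giving a difference of -0.40 (SE 0.19, adjusted p = 0.612). The APPSw values were both under the controls. Its relative Cdk18 differed by -0.07 (SE 0.20), with overlapping groups.

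Cdk14, a PFTAIRE kinase that works with cyclin Y, gave unlike values by its probe sets. One (93422_at) read 1463 and 1829 on the control arrays against 1279 and 1196 on the APPSw arrays, giving a difference of -0.40 (SE 0.19, adjusted p = 0.614), and the other (93421_at) differed by 0.09 (SE 0.17). The kinases of the transcription machinery lay close to 0. Cdk7, of the CDK-activating kinase and TFIIH, differed by 0.19 (SE 0.19), Cdk8, of Mediator, by -0.05 (SE 0.17), and Cdk9, of the elongation factor P-TEFb, by -0.0073 (SE 0.21). Cdk11b, which acts in transcription and splicing, differed by 0.09 and -0.24 by its kept probe sets. The central kinases of S phase and mitosis lay below the filter. Cdk1 read 72.0 and 86.7 on the control arrays against 122.2 and 71.1 on the APPSw arrays, and the brighter Cdk2 probe set 654.4 and 553.3 on the control arrays against 432.7 and 406.3 for APPSw.

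**Figure D2:**
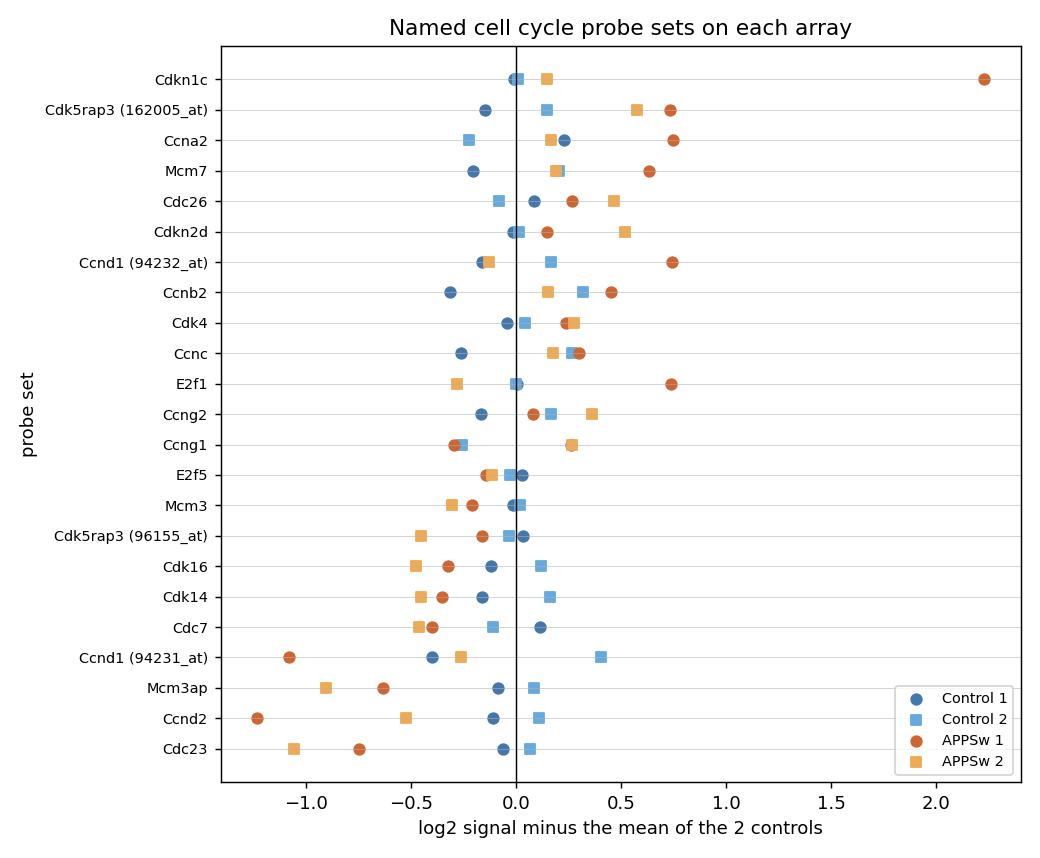
Log2 signal of each of the 23 named cell cycle probe sets on the 4 arrays, relative to the mean of the 2 controls; circles are the first array and squares the second of each group, controls blue and APPSw orange. Cdc23, Ccnd2, Mcm3ap and Cdk5rap3 (162005_at) are among the probe sets with both APPSw arrays on one side of both controls. The same held for 41.2% of all probe sets tested. For Cdkn1c the distance lies in APPSw 1. Ccnd2 passed the filter only because of the controls.

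The widest difference among tested members was in a CDK inhibitor, and it came from a single array. Cdkn1c, the CIP/KIP inhibitor p57 that holds cells out of the cycle, read 471.1 and 477.8 on the control arrays, while APPSw 1 read 2224.5 and APPSw 2 read 526.1. The other arrays lay under the signal level of the filter, so Cdkn1c was tested only because of APPSw 1. In log2, APPSw 1 exceeded the mean of the controls by 2.23 and APPSw 2 by 0.15. The fitted difference was 1.19 (SE 0.64, adjusted p = 0.626), and 0.15 without APPSw 1. The 7 choroid plexus markers exceeded that mean by a median of 2.03 on APPSw 1 and 0.19 on APPSw 2, with none at 0 on any array. For 8 markers of meninges and fibroblasts the medians were 0.49 and 0.23. The part of those tissues in the Cdkn1c signal was not tested.

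**Figure D3:**
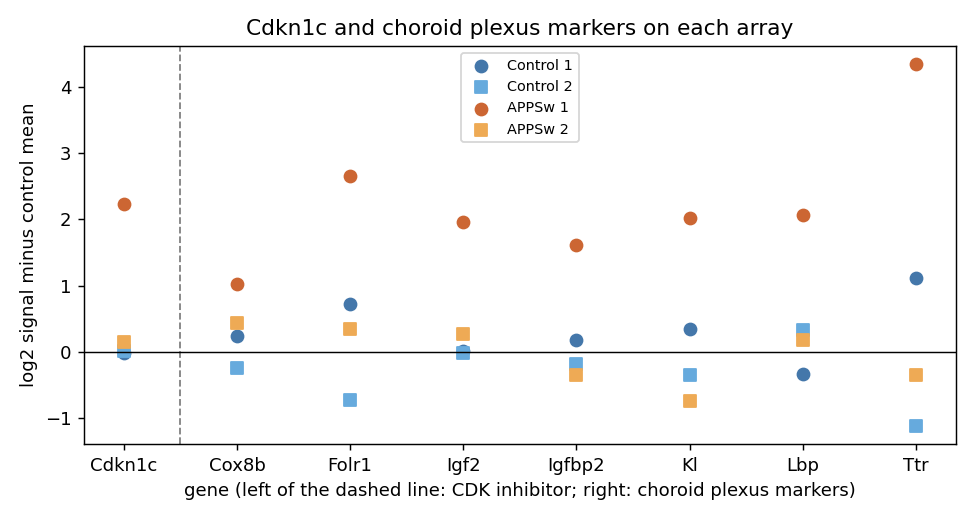
Log2 signal of Cdkn1c and of the 7 choroid plexus markers that passed the filter, on each of the 4 arrays, relative to the mean of the 2 controls. APPSw 1 is the highest array for every gene shown, and Cdkn1c lies at 2.23 there against 0.15 on APPSw 2. Cdkn1c passed the filter only because of APPSw 1.

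Among probe sets that passed the filter, the other inhibitors differed less. Cdkn2d, the INK4 inhibitor p19 that is kept on in postmitotic neurons, read 5191 and 5286 on the control arrays against 5807 and 7510.1 on the APPSw arrays, giving a difference of 0.33 (SE 0.20, adjusted p = 0.651). The groups did not overlap, APPSw being higher, and the difference was 0.15 without APPSw 2. Cdkn2c, the INK4 inhibitor p18, differed by 0.16 (SE 0.19). Cdkn1a, the p53-induced inhibitor p21, read 520.7 and 987.8 on the control arrays against 1352.1 and 444.0 on the APPSw arrays by its kept probe set, so each group spanned more than the difference of 0.11 (SE 0.57). With Cdkn2aipnl, all 5 kept probe sets of the Cdkn symbols lay above 0, and 4 of 5 without APPSw 1 or without control 1. The Cdkn probe sets below the filter lay on both sides of 0.

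The CDC genes include the member with the smallest p. Cdc23, a subunit of the anaphase-promoting complex that marks cyclins for destruction, read 2038 and 2228 on the control arrays against 1270.1 and 1023 on the APPSw arrays. Both APPSw arrays were well below both controls, the difference was -0.90 (SE 0.19, adjusted p = 0.599), and it lay between -0.75 and -1.06 with an array left out. It was the only 1 of the 56 members in which the APPSw arrays both stood 1.5-fold or more from each of the controls (1.79% of the members, against 1.22% of all probe sets tested). A dimmer Cdc23 probe set under the filter went the other way, with 94.7 and 149.4 in controls against 168.1 and 164.3 for APPSw. Other subunits of the complex gave other values. Cdc26 read 2258 and 2011 on the control arrays against 2559 and 2939 on the APPSw arrays, giving a difference of 0.36 (SE 0.18, adjusted p = 0.620), with both APPSw arrays above both controls. Cdc16 differed by -0.06 (SE 0.21), and the complex's activator Cdc20 by 0.15 (SE 0.19).

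Among CDC genes of replication, Cdc7, the kinase that activates the loaded MCM helicase, read 1056 and 904.5 on the control arrays against 739.3 and 708.8 on the APPSw arrays. The groups did not overlap, and the difference was -0.43 (SE 0.18, adjusted p = 0.612). Cdc6, which loads the helicase at origins, differed by -0.18 (SE 0.30). Cdc45, a part of the active helicase, differed by -0.08 (SE 0.18), and both had overlapping groups. The geometric mean of Cdc6 on the APPSw arrays lay under the signal level of the filter. Cdc25a, a phosphatase that activates CDKs, differed by 0.18 (SE 0.17), and Cdc34, the ubiquitin-conjugating enzyme that works with SCF ligases, by -0.22 (SE 0.19). Over the 16 kept CDC probe sets, 12 differences lay below 0 and 4 above, and 9 to 11 lay below 0 with an array left out. Of the 9 that belong to genes of the division cycle, 6 lay below 0 and 3 above, and the 7 of genes sharing only the start of the symbol account for the other 6 below and 1 above.

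The MCM subunits form the helicase that opens DNA at replication origins, and their genes are classic E2F targets. Mcm7 read 605.6 and 803.0 on the control arrays against 1081.2 and 795.9 on the APPSw arrays, giving a difference of 0.41 (SE 0.24, adjusted p = 0.651). APPSw 1 was the highest array and APPSw 2 lay just under control 2, and the difference was 0.19 without APPSw 1 and 0.63 without APPSw 2. Mcm3 read 1084 and 1109.9 on the control arrays against 947.6 and 888.4 on the APPSw arrays, giving a difference of -0.26 (SE 0.17, adjusted p = 0.677), with both APPSw arrays below both controls. Mcm2 differed by 0.18 (SE 0.20), Mcm4 by 0.18 (SE 0.18) and Mcm5 by -0.20 (SE 0.31). The subunits of this one complex thus lay on both sides of 0, with 3 above and 2 below.

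E2F-type words were looked for in RefSeq promoter windows of the build GRCm38.p6, 300 bases long from 250 before to 50 after a gene's start, as context for the replication genes. The words were TTTCCCGC, TTTGGCGC, TTTCGCGC and TTTGCCGC on both strands, and matches may overlap. Of the 66 genes, 57 matched the promoter table, with 68 windows. A word was found in 14.7% of these windows and in 2.26% of the 32851 windows of the table, and for MCM symbols in 4 of 8 windows. These matches describe letters and not measured binding. The stretches below, read 5′ to 3′ on the gene's strand with the words in capitals, are shown because they come from helicase subunits on either side of 0 and from the helicase loader and the E2F gene described here.
Mcm5, chr8:75109336-75109387 (+): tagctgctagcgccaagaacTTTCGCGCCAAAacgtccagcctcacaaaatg
Mcm6, chr1:128359784-128359835 (-): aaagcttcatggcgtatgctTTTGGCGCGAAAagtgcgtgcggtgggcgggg
Mcm7, chr5:138172021-138172068 (-): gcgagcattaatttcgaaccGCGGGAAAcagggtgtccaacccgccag
Cdc6, chr11:98907993-98908040 (+): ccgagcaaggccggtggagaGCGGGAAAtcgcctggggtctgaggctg
E2f3, chr13:29986064-29986094 (-): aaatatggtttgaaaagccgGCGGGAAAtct

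In Mcm5 and Mcm6 a pair of words overlaps, and the first match begins 153 and 110 bases before the start. In Mcm7, Cdc6 and E2f3 it begins 165, 138 and 11 bases before it. Mcm5 and Mcm7, which both carry such words, differed by -0.20 and 0.41, while the Mcm6 and E2f3 probe sets lay below the filter.

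Of the E2F factors, 2 probe sets passed the filter. E2f5, a repressor of the cycle genes in resting cells, read 1243 and 1197 on the control arrays against 1102 and 1125 on the APPSw arrays. Both APPSw arrays lay below both controls by a small margin, with a difference of -0.13 (SE 0.17, adjusted p = 0.830). E2f1, an activator, read 697.1 and 694.6 on the control arrays against 1159.6 and 572.2 on the APPSw arrays. APPSw 1 lay above the controls and APPSw 2 below them, and the difference of 0.23 (SE 0.34, adjusted p = 0.864) was -0.28 without APPSw 1.

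Among the 14 tested probe sets of genes that share only the start of a symbol, 2 had an unadjusted p under 0.05, where 8.05% of all probe sets did. Mcm3ap, a large protein that binds MCM3 and takes part in mRNA export, read 2275 and 2563 on the control arrays against 1554 and 1290.3 on the APPSw arrays, giving a difference of -0.77 (SE 0.19, adjusted p = 0.599). Both APPSw arrays lay below both controls, and the difference was -0.64 to -0.90 with an array left out. Cdk5rap3, a partner of a Cdk5 activator, was read in opposite directions by its probe sets. One (162005_at) read 1187 and 1457 on the control arrays against 2182 and 1959 on the APPSw arrays, giving a difference of 0.65 (SE 0.19, adjusted p = 0.599). The other (96155_at) read 2966 and 2838 on the control arrays against 2595 and 2119.8 on the APPSw arrays, giving a difference of -0.31 (SE 0.19, adjusted p = 0.656). Each separated the groups, but with opposite sign. The splicing factor Cdc5l differed by -0.43 (SE 0.40) and -0.30 (SE 0.21) by its probe sets. The HSP90 co-chaperone Cdc37 differed by -0.09 (SE 0.25), and the cyclin D binding protein Ccndbp1 by 0.11 (SE 0.19).

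The 28 probe sets below the filter had signals from 22.6 to 931.7 and were left out of the main test. Without the filter 0 of them passed the adjusted threshold, and 2 had an unadjusted p under 0.05, E2f3 and Ccnb1ip1. The share of all probe sets at that level without the filter was not computed. These 2 are therefore not read as a result about the members. For 16 genes no probe set passed, namely Ccna1, Ccne2, Cdk1, Cdk2, Cdc25c, Cdkn1b, Cdkn2a, Cdkn2b, Cdkn3, E2f3, E2f8, Mcm6, Mcm10, Ccnb1ip1, Cdc73 and Cdk5r2. The median size of the difference between arrays of a group was 0.65 for controls and 0.69 for APPSw, larger than in the brighter members, so single dim values say little. In 2 of the 28 the APPSw arrays both stood 1.5-fold or more from each of the controls, against 10.7% of all 4969 probe sets below the filter. E2f3, an activator, read 111.7 and 48.5 on the control arrays against 289.3 and 424.0 on the APPSw arrays, and Ccnb1ip1, a ubiquitin ligase of meiotic crossing-over, 274.4 and 188.1 in controls against 75.1 and 45.5 for APPSw. Cdkn1b, the inhibitor p27, was higher in APPSw by each of its dim probe sets, with 98.4 and 55.0 in controls against 115.9 and 453.6, and 41.7 and 97.9 against 231.8 and 107.0. Of the other dim inhibitor probe sets, Cdkn1a (94881_at), Cdkn2a and Cdkn2b differed by -0.96, -0.64 and -0.41, and Cdkn3 by 0.78.

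Of the 17 genes with more than 1 probe set, 9 had probe sets on opposite sides of 0. Of the others, Cdk4, Cdkn1b, Cdc25a and E2f8 had only positive values, and Cdk2, Cdc34, Cdc5l and Mcm5 only negative ones. Probe sets of a gene can read different stretches or variants of a transcript, and the sources used here do not give the stretches.

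**Figure D4:**
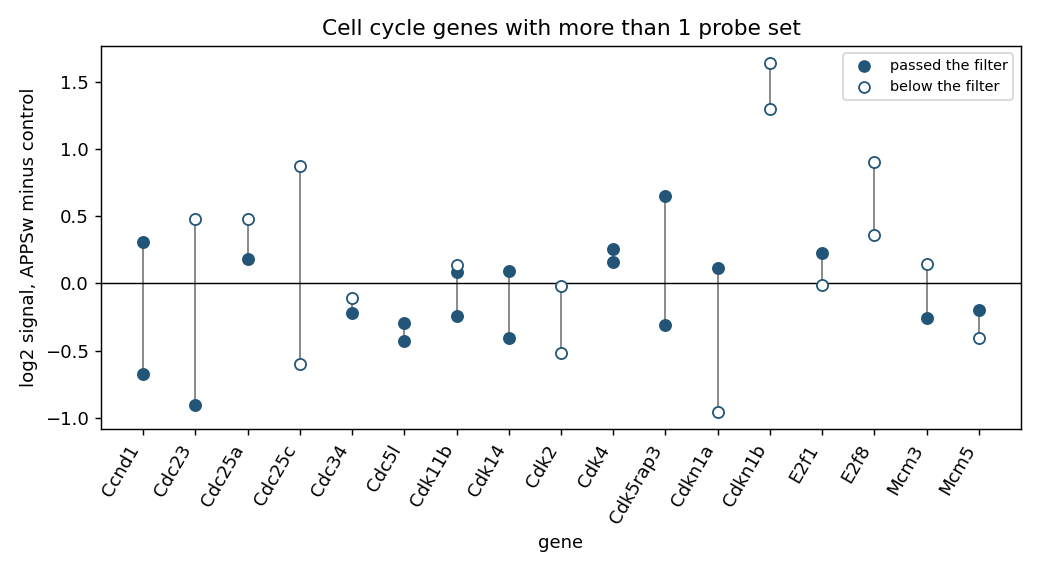
Log2 signal difference, APPSw minus control, for each probe set of the 17 cell cycle genes with more than 1; filled points passed the filter, open points lay below it, and a line joins the probe sets of a gene. For 9 genes, among them Ccnd1, Cdc23 and Cdk5rap3, the points lie on both sides of 0.

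Other genes of the cycle were followed through lists, each gene by its brightest probe set, and by limma 0 of their genes passed the adjusted test. Of 9 tested genes of the retinoblastoma family, DP partners and MuvB complex, 0 had an unadjusted p under 0.05, and the median difference was 0.08 against 0.02 over all probe sets. Tfdp1, the dimer partner of E2F factors, read 5263 and 4141 on the control arrays against 5834 and 7067 on the APPSw arrays, giving a difference of 0.46 (SE 0.21, adjusted p = 0.612). Lin9, of the MuvB core, differed by 0.61 (SE 0.28), and Rbl2, the pocket protein p130, by 0.22 (SE 0.19). By these probe sets both APPSw arrays lay above both controls in all 3. That held for 3 of the 9 genes, against 22.2% of all probe sets tested. Another tested probe set of Tfdp1 differed by -0.25 (SE 0.22), with overlapping groups. Lin9 read 669.2 and 389.4 on the control arrays, so control 2 lay under the signal level of the filter. The geometric mean of its controls did so too, and Lin9 was tested only because of the APPSw arrays.

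The lists of replication and of checkpoint kinases had medians near 0. Of 17 tested replication and nucleotide genes, 3 lay above both controls, where 22.2% of all probe sets did, and 2 below, where 19.0% did, with a median of -0.02. Cdt1, which loads the helicase with Cdc6, differed by 0.38 (SE 0.19), Tk1, thymidine kinase, by 0.39 (SE 0.21), and Rpa3, of the single-strand binding complex, by -0.23 (SE 0.17). For Rfc5, of the clamp loader, the brightest probe set gave -0.02 and the other -0.63 (SE 0.19), which had an unadjusted limma p under 0.05. That dimmer probe set lay under the signal level of the filter on both APPSw arrays, as did Rpa3. Both were tested only because of the controls. Of 10 checkpoint and mitotic kinases 5 lay above 0 and 5 below, and the median was 0.02, with 0.36 (SE 0.24) for Chek1, 0.38 (SE 0.30) for Plk1 and 0.22 (SE 0.21) for Chek2. Another probe set of Plk1 that passed the filter differed by -0.44 (SE 0.31). The control values of Chek1 had a geometric mean under the signal level of the filter. Chek1 was thus tested only because of the APPSw arrays. By the brightest probe set of each gene, 0 genes of either list had an unadjusted p under 0.05.

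Ubiquitin ligase and p53 genes were likewise mixed. Of 10 tested genes of the SCF and anaphase-promoting complexes the median was 0.04. Anapc11, the RING subunit of the latter, read 8678 and 8291 on the control arrays against 10998 and 10761 on the APPSw arrays, giving a difference of 0.36 (SE 0.17, adjusted p = 0.612), with both APPSw arrays higher. Ube2c, its ubiquitin-conjugating enzyme, read 768.3 and 216.0 on the control arrays against 1648.5 and 653.3 on the APPSw arrays, with overlapping groups. The arrays other than APPSw 1 had a geometric mean under the signal level of the filter. Ube2c was thus tested only because of APPSw 1. Btrc, an SCF substrate receptor, differed by -0.27 (SE 0.19). Of 9 tested p53-axis genes the median was -0.10. Mdm2, the ligase of p53, differed by -0.37 (SE 0.18), Mdm4, its relative, by -0.31 (SE 0.30), and Gadd45g, a growth arrest gene, by 0.32 (SE 0.18).

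Most markers of dividing cells were too dim to test. Of 15 measured genes of mitosis and proliferation, 4 passed the filter, with a median of 0.36. Mki67, the proliferation antigen Ki-67, read 429.7 and 728.7 on the control arrays against 1083.6 and 625.6 on the APPSw arrays by its brighter probe set, and the groups overlapped. By that probe set the geometric mean of the controls lay under the signal level of the filter. Its other probe set lay between 15.1 and 35.4 on all arrays. Cenpa, the centromeric histone, differed by 0.44 (SE 0.23), and the kinesin Kif22 by 0.28 (SE 0.23). For Incenp, of the chromosomal passenger complex, the brightest probe set gave -0.17 (SE 0.24) and another 0.23 (SE 0.18).

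Markers of the cell types that can divide gave no common direction. Of 10 tested progenitor and immature neuron markers 8 lay above 0, with a median of 0.13, and Sox11, Pax6 and Vim differed by 1.196 (SE 0.22), 0.53 (SE 0.21) and 0.38 (SE 0.20). Of the microglial markers 8 were tested, with a median of 0.08, and C1qc, Csf1r and Tyrobp differed by -0.62 (SE 0.25), -0.48 (SE 0.20) and 0.38 (SE 0.19). By other tested probe sets Csf1r differed by 0.64 (SE 0.28) and Laptm5 by 0.66 (SE 0.17), against -0.35 (SE 0.20) by the brightest of Laptm5. Of the vascular markers 8 were tested, 4 above 0 and 4 below, with a median of 0.02. By the brightest probe sets they ran from -0.72 (SE 0.22) for the pericyte receptor Pdgfrb to 0.11 (SE 0.44) for Acta2. Rgs5 and Flt1 differed by -0.14 (SE 0.26) and -0.19 (SE 0.24) by these. Their other tested probe sets gave -0.74 (SE 0.27) for Rgs5 and 0.82 (SE 0.42) for Flt1. Pdgfrb read 881.8 and 657.2 on the control arrays against 426.8 and 498.8 on the APPSw arrays. Its APPSw values lay under the signal level of the filter. The oligodendrocyte progenitor genes Sox10 and Pdgfra differed by -0.55 (SE 0.41) and -0.19 (SE 0.20). Other tested probe sets of these genes gave -1.64 (SE 0.53) for Sox10 and 0.45 (SE 0.30) for Pdgfra. For that Sox10 probe set the geometric mean of the APPSw arrays lay under the signal level of the filter. It was tested only because of the controls. The part of these cell types in the cell cycle values was not tested.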

How the data were processed

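The authors deposited 1 linear signal intensity for each probe set and array, computed with MAS 5.0 to a scaling target of 2500, per the labels. The sources used here do not give background settings, and present calls were not used. With 2 arrays a group, precision is limited by their number. Of 12488 probe sets, 66 manufacturer's controls were left out. Genes were named from the platform annotation, only where it gives 1 symbol.

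Log2 signals entered limma 3.58.1 (R 4.3.3; lmFit, then eBayes; two-sided tests), after leaving out probe sets whose mean log2 signal lay under the 40th percentile, with Benjamini-Hochberg adjustment over the 7453 kept. The fit had 2 residual and 3.70 prior degrees of freedom, and was tested on simulated data. With 2 arrays against 2, the smallest two-sided p of an exact permutation test is 0.333.

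The members and lists were chosen with earlier results of these data known. Named are the 16 tested members with the smallest p, the 2 smallest of each family, genes whose kept probe sets differ in sign by over 0.5, dim probe sets with each APPSw array 1.5-fold from each control, and up to 3 genes of each pathway list with the smallest p. Others named, such as the remaining members and the dim ones, complete a family or gene. Of the cell type lists, those on choroid plexus, meninges, principal neurons, neocortex, oligodendrocytes, astrocytes and dividing cells are reported. Alternatives were quantile normalization, no filter, the 60th percentile, signals floored at 250, a pseudocount of 250, a block for the replicate number, an intensity trend, 1 averaged value for each gene, and each array left out.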

Additional observations from a re-analysis of the deposited data

How the results depend on the processing

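Under every alternative run, limma called 0 member probe sets and 0 probe sets overall. Members with an unadjusted p under 0.05 numbered 4 of 56, and 3 to 10 with an array left out (10 without APPSw 2). They numbered 2 when genes sharing only the start of a symbol were left out, an alternative chosen after seeing the data, and the median then moved from 0.02 to 0.10. With the stricter filter, 14 of the 36 members then tested had both APPSw arrays on one side of both controls, against 22 of 56. The median ranged from -0.010 to 0.061 with an array left out. With the replicate block 6 members had an unadjusted p under 0.05. Shares over all probe sets were not computed for the block or the stricter filter. Those counts are therefore not read as a result about the members. Across probe sets, array 2 minus array 1 in controls correlated at -0.020 with array 2 minus array 1 in APPSw, so the replicate numbers show no pairing. Of the 23 named probe sets, 5 changed sign with an array left out: Ccnb2 ranged from -0.015 to 0.62, Ccnc from -0.026 to 0.50, Ccnd1 (94232_at) from -0.13 to 0.74, E2f1 from -0.28 to 0.74 and Ccng1 from -0.29 to 0.26. The other alternatives fitted for each probe set changed no sign among those of the 23 they kept. A single averaged value for each gene merges the opposed probe sets of Ccnd1 and Cdk5rap3, and so gave none for single probe sets. A fit with an array left out takes a group's remaining single array to vary like the pair in the other group.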

Other observations

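Some dim members differed more between the arrays of a group than between the groups, in the same sense in both, and were picked after their values were seen. Mcm6, a helicase subunit, read 27.4 on control 1 and 224.5 on control 2, then 26.3 on APPSw 1 and 182.6 on APPSw 2. Mcm10, which helps to start the replication fork, read 39.5 and 309.8 on the control arrays against 68.5 and 405.1 on the APPSw arrays. The dimmer E2f1 probe set ran the other way, with 182.1 and 52.1 in controls against 224.8 and 41.5 for APPSw. None of these probe sets passed the filter, and over all tested probe sets the arrays' numbers showed no such pattern.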
